A study of Rattus norvegicus with 12 samples.

Results

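The genes described here are 30 genes of GABA and glycine transmission in the rostral ventrolateral medulla (RVLM) of ageing rats. They were chosen by name, as receptor subunits, enzymes, transporters, a scaffold, a receptor trafficking protein and chloride cotransporters of inhibitory synapses. Earlier results of these data were known when they were chosen. The 30 genes had 38 of the 41012 probes on the array, and they were 30 of the 18305 genes that could be named. The samples were tissue micropunches of the RVLM from male F344 rats (labelled Fisher 344) of 3 months (young), 12 months (middle-aged) and 24 months (aged), with 3 animals at each age and no treatment. The array held 1 colour of labelled RNA from 1 animal, and the third animal of each age was measured on 2 arrays, so that 12 arrays carried 9 animals. The comparisons asked which genes differed between 24 and 3 months, between 12 and 3 months and between 24 and 12 months.

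GABA and glycine are the main fast inhibitory transmitters of the medulla and spinal cord. Both open chloride channels of related build, the GABA-A and glycine receptors, while GABA-B receptors act through G proteins. Both transmitters are loaded into vesicles by the same carrier, and the chloride gradient that sets the sign of the response is kept by cation-chloride cotransporters. In the RVLM, neurons that drive sympathetic outflow to heart and vessels are held in check by GABAergic input.

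The 38 probes were 60 bases long, and some of them fall on like stretches of related subunits, so their letters show how far a probe for 1 subunit differs from that for its relative. Capitals mark the bases that are identical in both probes of a pair at the best ungapped alignment, and each sequence is written 5′ to 3′ as the array files give it. The pair for Gabra6 (chr10:27475121-27475180 of rn3, minus strand) and Gabra4 (chr14:39124766-39124825, plus strand) comes first because Gabra6 was high in 1 animal and Gabra4 was not.
Gabra6: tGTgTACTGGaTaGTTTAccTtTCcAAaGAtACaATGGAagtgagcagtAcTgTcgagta
Gabra4: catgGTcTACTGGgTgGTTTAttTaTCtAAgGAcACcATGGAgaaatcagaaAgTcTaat
The pair for Glra1 (chr10:40943501-40943560, minus strand) and Glra3 (chr16:37850951-37851010, plus strand) belongs to the glycine receptor, whose subunits gave the lowest unadjusted p of the 30 genes.
Glra1: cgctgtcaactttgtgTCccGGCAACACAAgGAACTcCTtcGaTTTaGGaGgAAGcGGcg
Glra3: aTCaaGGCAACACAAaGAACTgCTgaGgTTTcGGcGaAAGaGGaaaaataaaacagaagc
The Gabra6 and Gabra4 probes shared 31 of 57 aligned bases, and the Glra1 and Glra3 probes shared 31 of 45. Over all 703 pairs of the 38 probes the largest number of identical bases was 33 of 54, between Gabra2 and Gabra3, against a median of 20. The next was 32 of 58, between Gad2 and Gphn, an enzyme and a scaffold, so the number alone does not mark related subunits. Levels are given as log2 of the processed signal minus the 75th percentile of the array, so that 0 is the level of a fairly bright probe, and a probe's level is compared only with its own level in other animals.

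None of the members passed the test in any comparison. Of the 30 genes, 29 had a probe that stood well above background throughout at least 1 age, and 0 of these 29 reached an adjusted p under 0.05 in limma's moderated test between 24 and 3 months, where 2.05% of all 25427 genes and unnamed probes tested did (1.57% higher and 0.472% lower at 24 months). The count was also 0 of 29 between 12 and 3 months (0.201% of all), between 24 and 12 months (0.0118% of all) and in the F test over the 3 ages (1.15% of all). At an unadjusted p under 0.05 the members were 2 of 29 between 24 and 3 months (Glra2 and Slc6a13, both lower), where 15.2% of all items were and 4.93% were lower. Between 12 and 3 months they were 0 of 29, where 6.35% of all were. Between 24 and 12 months it was 1 of 29 (Glra2, lower), where 10.7% of all were and 3.12% were lower. In the F test, Glra2 alone was under 0.05, beside 12.3% of all. These counts rest on the brightest probe of each gene. Tested probe by probe in limma, second probes of Glra1 (higher) and Gphn (lower) also had an unadjusted p under 0.05 between 24 and 3 months. The median log2 difference of the members was 0.04 between 24 and 3 months, beside 0.03 for all items, and the median of its absolute size was 0.09, beside 0.12 for all items. Between 12 and 3 months the median of the members was -0.01 and that of all items 0.01, and between 24 and 12 months it was 0.01, beside 0.02.

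The width of the error decides what these counts can show. The 95% confidence interval of the difference between 24 and 3 months lay inside a change of 2-fold either way for 26 of the 29 members, beside 93.5% of all items, and the exceptions were Gabbr1, Gabrd and Slc6a13. It lay inside 1.5-fold for 20 of the 29, beside 74.8% of all items. For the other 9 it reached past 1.5-fold, through its width, its centre or both. The interval ran from 0.16 log2 units either side for Slc12a2 to 1.05 for Gabrd. Differences smaller than a gene's own interval could not be told from 0 with 3 animals an age. Between 12 and 3 months the interval lay inside 2-fold for 26 of 29 members, all but the same 3 genes, beside 95.3% of all items. Between 24 and 12 months it did for 27, all but Gabra4 and Gabrd, beside 94.4% of all. In tissue of mixed cells, fewer cells of a type and less RNA per cell cannot be told apart in any of these values.

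**Figure D1:**
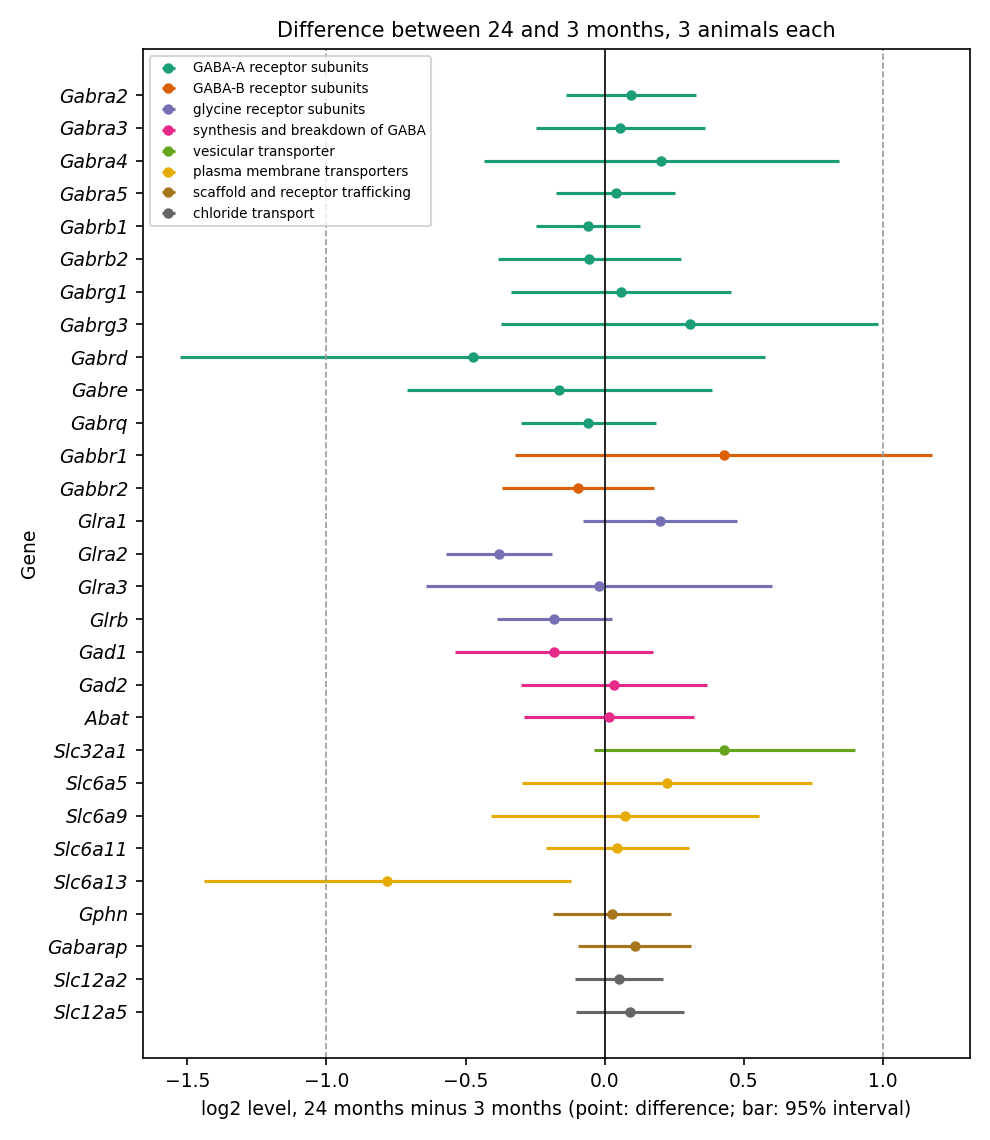
Difference in log2 level between 24 and 3 months (horizontal axis) for the 29 members tested, grouped by role (colour). Points are the fitted differences and bars their 95% confidence intervals with 3 animals at each age; the dashed lines mark 2-fold. Only the bars of Glra2 and Slc6a13 do not cross 0, and neither gene passed the adjusted test.

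**Figure D2:**
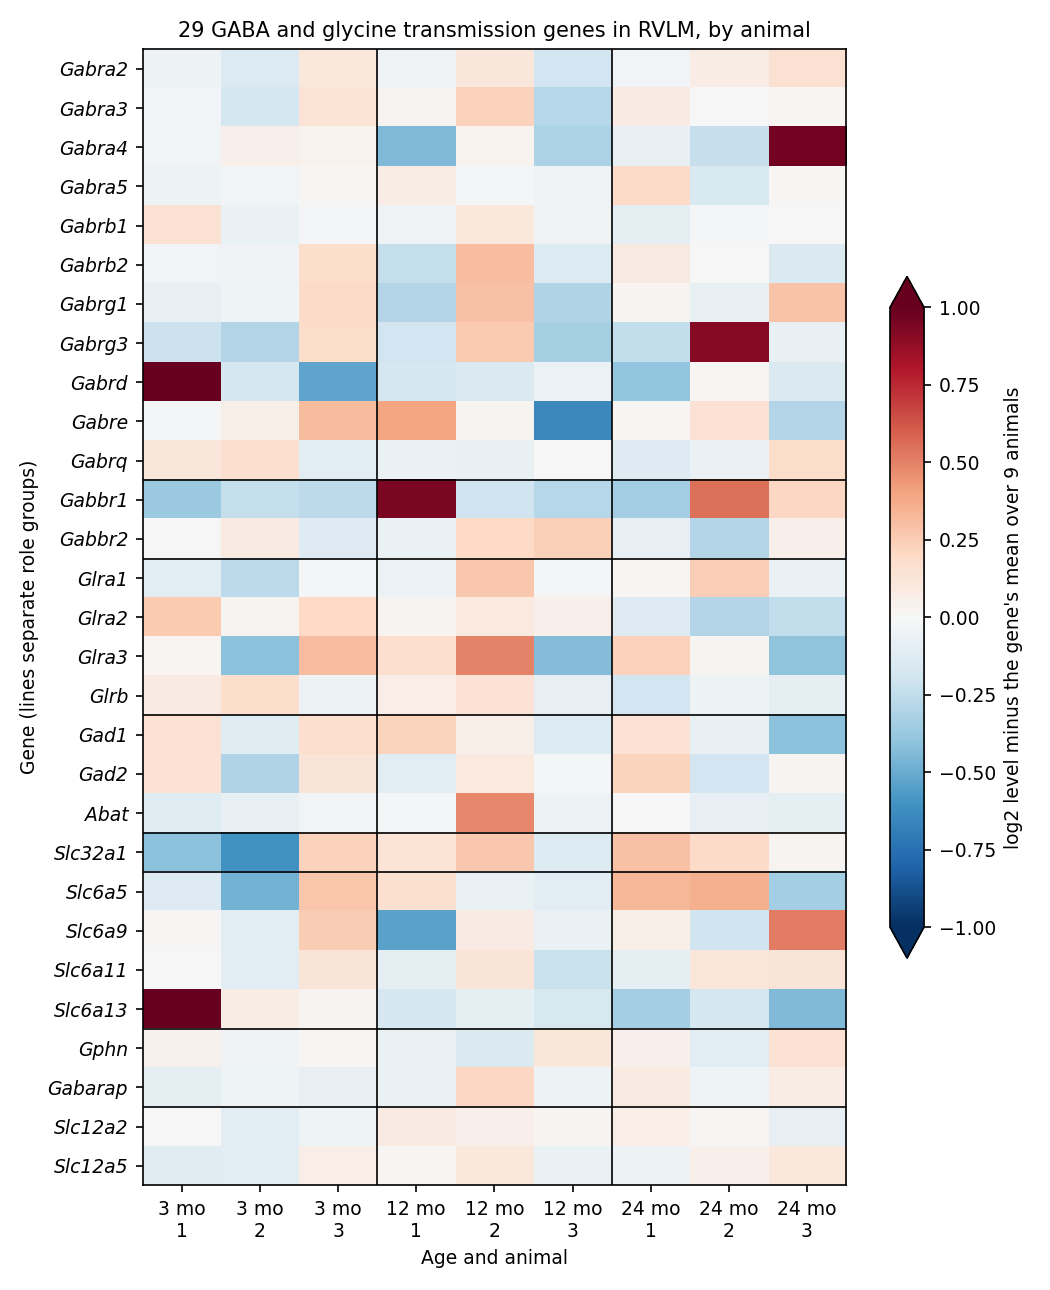
Level of the 29 members tested in each of the 9 animals, as log2 level minus the gene's own mean over the animals (colour, cut at 1 either way), with ages from left to right and lines between role groups. Single dark cells stand out, such as Gabrd and Slc6a13 in animal 1 of 3 months, Gabbr1 in animal 1 of 12 months and Gabra4 in animal 3 of 24 months, whereas only Glra2 and Slc6a13 are paler or bluer in all 3 animals of 24 months than in all others.

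The tissue and its libraries frame these values. Of the genes that mark catecholamine neurons of the RVLM, Th, the first enzyme of catecholamine synthesis, and Dbh, which makes noradrenaline, were well above background on all 12 arrays, while Slc6a2 failed the filter and Pnmt was not analysed here. All 4 tested markers of these neurons had negative differences between 24 and 3 months and 0 passed, with Dbh at -0.92 ± 0.20 (adjusted p 0.0655 in limma) and Th at -0.04 ± 0.26. The part of this in the members' values was not tested. Each array had 43379 spots, of which 73.5 to 77.1% rose well over background, and saturation was marked for 0. Between both arrays of an animal the median absolute difference was 0.058 to 0.063 log2 units, and between animals of an age 0.134 to 0.144. None of 10 pan-neuronal markers or 7 astrocyte markers passed between 24 and 3 months, beside 2.05% of all items. All 7 microglial markers were higher and 4 passed, beside 1.57% higher of all. All 8 oligodendrocyte markers were lower and 2 passed, beside 0.472% lower of all. The 3 tested red blood cell genes were higher by 0.73 to 0.91, and 0 passed. Between 12 and 3 months the 4 tested markers of cholinergic motor neurons were higher by 0.77 to 1.02, and 0 passed. The arrays lay on 3 slides, and slide was largely confounded with age. Slide 1 held animals 1 to 3 of 3 months and none of 24 months. Slide 2 held animals 1 and 2 of 24 months and none of 3 months. Slide 3 held animal 3 of each age, so 24 and 3 months met on that slide alone.

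The first animal of 3 months stood apart by more than 1 log2 unit in 3 members, which are described here because it was high in them. Gabra6, the alpha subunit known for cerebellar granule cells, had a level of -0.50 in that animal and of -8.54 to -6.64 in the 8 others, and its probe was well above background on 1 of 12 arrays, which is why it was not tested. Gabrd, the delta subunit of receptors outside the synapse, also known from granule cells, was 0.15 in that animal and -1.99 to -1.44 in the others. Slc6a13, a GABA transporter known from the leptomeninges and brain vessels, was 0.06 there and -1.66 to -1.14 in the others. In all 3 genes the levels of that animal and of the other 8 do not overlap, which holds for any gene highest in it. That animal was also the highest, by less, for Glra2 (-0.02 against -0.08 in the next) and for Gabrb1 (2.51 against 2.46).

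Markers of other tissue moved with these genes in the same animal. Of 7 listed markers of cerebellar granule and Purkinje cells that had a probe, 5 were highest in it, and Neurod1, a granule cell transcription factor, was -0.01 there against -3.08 to -2.69 in the others. Pcp2, a Purkinje cell protein, was -0.67 against -3.25 to -2.85. All 8 markers of leptomeninges and fibroblasts were highest in that animal, with Col1a2, a fibrillar collagen, at 2.68 against 0.41 to 1.501 and Ogn, a meningeal matrix protein, at 1.29 against -0.39 to 0.21. The log2 of the summed level of the 7 tested meningeal markers was 4.59 in that animal and 2.84 to 3.64 in the others, while that of the 6 tested cerebellar markers was 3.92, against 3.52 to 3.94. The mean level of the 7 tested meningeal markers was 1.03 above their 9-animal mean there, and between -0.34 and 0.17 in the others. For the 6 tested cerebellar markers the mean was 1.09 there and between -0.39 and 0.07 in the others. Of other lists, 3 of 6 choroid plexus, 2 of 8 endothelial and pericyte, 1 of 8 oligodendrocyte and 0 of 10 pan-neuronal markers were highest in that animal. The share of all items highest in it was not counted. The part of cerebellar and meningeal cells in the 3 members was not tested. Gabra4, whose probe is the relative of that for Gabra6, was -2.74 in that animal, inside the range of -3.15 to -1.74 of the others.

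**Figure D3:**
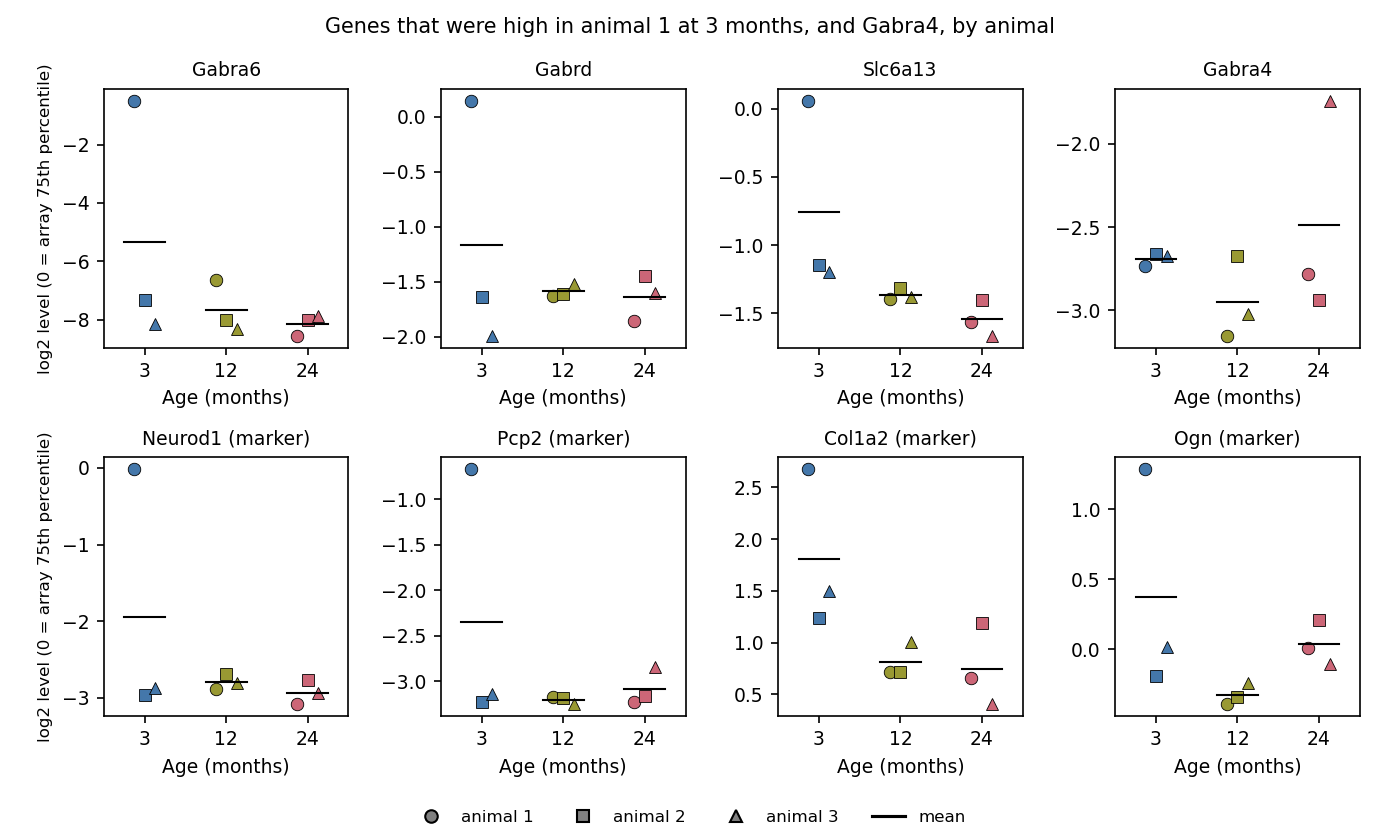
Log2 level by age in months for 4 members (top) and 4 markers (bottom), with a symbol for each animal and a bar for the mean of 3; every panel has its own scale. Animal 1 of 3 months (blue circle) lies far above the other 8 animals in every panel but that of Gabra4, where it lies among them.

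Among the GABA-A receptor subunits, the pore-forming parts of the main GABA-gated chloride channel, 11 of 12 genes were tested and 0 passed in any comparison. The median difference between 24 and 3 months was 0.04, over a range of -0.47 (Gabrd) to 0.30 (Gabrg3). The alpha subunits, which shape the response to GABA and to benzodiazepines, gave small differences: Gabra2 differed by 0.09 ± 0.10 (SE), Gabra3 by 0.06 ± 0.13 and Gabra5 by 0.04 ± 0.09 between 24 and 3 months. The beta subunits, which with alpha form the GABA site, gave -0.06 ± 0.08 for Gabrb1 and -0.05 ± 0.15 for Gabrb2. For these 5 genes the 95% interval stayed inside 1.5-fold.

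Gabra4, an alpha subunit of receptors that often pair it with delta, had the lowest F test p of this group and was examined in each animal. Its levels were -2.74, -2.66 and -2.68 at 3 months, -3.15, -2.67 and -3.02 at 12 months, and -2.78, -2.94 and -1.74 at 24 months. Animal 3 of 24 months was the highest by far, and the ages overlapped. The difference between 24 and 12 months was 0.46 ± 0.28 (SE) with an adjusted p of 0.564 in limma, and that between 24 and 3 months was 0.20 ± 0.28. Without animal 3 of 24 months they were 0.09 and -0.17. The second array of that animal minus the first gave -0.0037 log2 units for this gene, so the high value was read on both.

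The gamma subunits, which take part in holding receptors at synapses, did not pass either. Gabrg1, a gamma subunit found in glia and some neurons, differed by 0.06 ± 0.17 between 24 and 3 months. Gabrg3 differed by 0.30 ± 0.30 and was lifted by animal 2 of 24 months, at -3.54 against -4.78 to -4.19 in the others, and the difference turned to -0.05 without that animal. Gabrq, the theta subunit, known from hypothalamic and brainstem monoamine nuclei, held between 1.42 and 1.74 in all 9 animals. Gabre, the epsilon subunit, was dim and was well above background on 9 of 12 arrays, at -6.40 to -5.37. For Gabrd the difference between 24 and 3 months was -0.47 ± 0.46 and became 0.18 without animal 1 of 3 months, so that its direction rested on that animal.

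GABA-B receptors are dimers in which Gabbr1 binds GABA and Gabbr2 couples to G proteins, and neither passed. Gabbr2, named because its F test p was the lower, had levels of 4.21, 4.31 and 4.08 at 3 months, 4.15, 4.41 and 4.46 at 12 months, and 4.13, 3.92 and 4.27 at 24 months. The ages overlapped, and the largest difference was -0.23 ± 0.12 between 24 and 12 months, with an adjusted p of 0.516. Gabbr1 was uneven between animals rather than ages. It was 2.52 in animal 1 of 12 months, and 2.13 and 1.78 in animals 2 and 3 of 24 months, and the other 6 animals lay between 1.21 and 1.38. A second Gabbr1 probe stayed between -3.23 and -2.93 in all 9 animals, so the unevenness was seen with 1 probe of 2. The difference between 24 and 3 months was 0.43 ± 0.33 with the first probe and 0.06 ± 0.10 with the second.

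The glycine receptor, the chloride channel of fast inhibition in medulla and cord, gave the lowest unadjusted p of the 30 genes. Glra2, the alpha subunit best known from the developing brain, had levels of -0.02, -0.26 and -0.08 at 3 months, -0.25, -0.18 and -0.23 at 12 months, and -0.40, -0.57 and -0.52 at 24 months. All 3 animals of 24 months lay below all animals of 12 and 3 months, and the 2 younger ages overlapped. Glra2 averaged -0.50 ± 0.09 at 24 months and -0.12 ± 0.12 at 3 months (SD, n = 3 each), and limma gave a difference of -0.38 ± 0.08 (SE), a fold of 0.768 with a 95% interval of 0.673 to 0.877. The unadjusted limma p was 0.00158 and the adjusted p 0.0634, so the gene missed the threshold. Between 24 and 12 months the difference was -0.28 ± 0.08 with an adjusted p of 0.332.

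The result for Glra2 lay near the threshold, and settings moved it across. It reached an adjusted p of 0.0340 in limma when the 12 arrays entered with the animal as a random block, and 0.0423 with an intensity trend in the variance model. More of all items passed there too, 473 higher and 151 lower with the block and 466 and 142 with the trend, against 400 and 120. The difference of Glra2 on slide 3, with 1 animal of each age, was -0.43 between 24 and 3 months. With slide as a block it was also -0.43, with an adjusted p of 0.0852 in limma. Both values rest in part on the same animals, as 24 and 3 months met on slide 3 alone.

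The other glycine receptor genes did not share 1 direction. Glrb, the beta subunit that binds gephyrin, had levels of -0.39, -0.29 and -0.52 at 3 months, -0.40, -0.33 and -0.55 at 12 months, and -0.66, -0.52 and -0.56 at 24 months. The animals of 24 months lay below those of 3 months by a narrow margin, with a difference of -0.18 ± 0.09 and an adjusted p of 0.387. Glra3, an alpha subunit known from pain pathways of the cord, ranged from -3.24 to -2.31 with ages mixed, and its difference between 24 and 3 months was -0.02 ± 0.27. Glra1, the adult alpha subunit of medulla and cord, differed by 0.20 ± 0.12 with the probe shown above.

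A second Glra1 probe, 6346 bases away in the gene on rn3 (chr10:40937095-40937154, minus strand), differed in the same direction. It is shown because its difference is over 3 times that of the first on the log2 scale, though the gap between the probes was not tested.
Glra1, second probe: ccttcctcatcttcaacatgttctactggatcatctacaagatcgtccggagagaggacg
With this probe the levels were -2.52, -2.77 and -2.18 at 3 months, -2.60, -2.45 and -2.02 at 12 months, and -2.22, -1.77 and -1.51 at 24 months. Animals 2 and 3 of 24 months were the highest of the 9, and animal 1 overlapped the younger ages. The difference between 24 and 3 months was 0.65 ± 0.23, with an unadjusted limma p of 0.0183 and an adjusted p of 0.226 over all 29797 probes kept. Of the 36 kept probes of the members, 0 passed in any of the 3 comparisons when every probe was tested on its own, beside 1.85% of all kept probes between 24 and 3 months, 0.175% between 12 and 3 months and 0.00336% between 24 and 12 months.

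**Figure D4:**
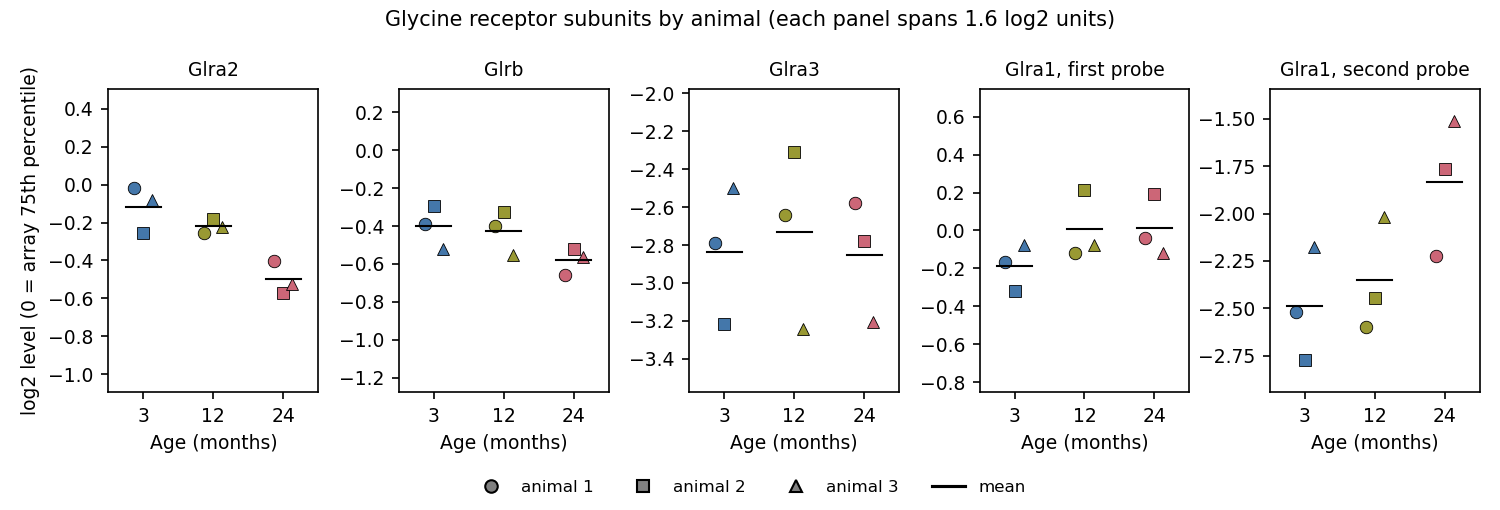
Log2 level of the glycine receptor genes by age in months, with a symbol for each animal and a bar for the mean of 3; all panels span the same number of log2 units. The animals of 24 months lie lowest for Glra2, while the second Glra1 probe is highest in 2 of them and Glra3 varies within every age.

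The enzymes that make and break down GABA showed no difference that passed. Gad1 and Gad2 encode the forms of glutamate decarboxylase that make GABA. Gad2 differed by 0.03 ± 0.15 between 24 and 3 months, and Gad1 by -0.18 ± 0.16. The other Gad1 probes, 2 in number, gave -0.26 ± 0.20 and -0.07 ± 0.19, the same sign as the first. Abat, the transaminase that degrades GABA, had levels of 0.74, 0.79 and 0.83 at 3 months, 0.84, 1.34 and 0.81 at 12 months, and 0.86, 0.78 and 0.76 at 24 months. A single animal, animal 2 of 12 months, was high and the other 8 were close together. The difference between 12 and 3 months was 0.21 ± 0.13 with an adjusted p of 0.936, and 0.04 without that animal.

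Slc32a1, the vesicular transporter that loads both GABA and glycine, had the largest positive difference of the members between 24 and 3 months. Its levels were 2.81, 2.61 and 3.45 at 3 months, 3.35, 3.49 and 3.08 at 12 months, and 3.51, 3.41 and 3.25 at 24 months. Animals 1 and 2 of 3 months were the lowest of the 9, and animal 3 of that age lay among the older animals. Slc32a1 averaged 3.39 ± 0.13 at 24 months and 2.96 ± 0.44 at 3 months (SD, n = 3 each), with a difference of 0.43 ± 0.21 (SE), a 95% interval of -0.04 to 0.90 and an adjusted p of 0.366. The difference was 0.26 without animal 2 of 3 months and 0.68 without animal 3 of that age (adjusted p 0.0935). On slide 3 alone, the difference between 24 and 3 months was -0.24, so that the sign differed from that over all animals.

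The transporters of the plasma membrane clear GABA and glycine from the synapse. Slc6a5, the neuronal glycine transporter that marks glycinergic cells, differed by 0.23 ± 0.23 between 24 and 3 months. Slc6a9, the glycine transporter found mainly in glia, differed by 0.07 ± 0.21, and Slc6a11, a GABA transporter of astrocytes, by 0.05 ± 0.11. None of these 3 passed, and their ages overlapped.

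Slc6a13 was ordered by age, and the size of its difference depended on 1 animal. Its levels were 0.06, -1.14 and -1.20 at 3 months, -1.39, -1.32 and -1.38 at 12 months, and -1.56, -1.40 and -1.66 at 24 months. All animals of 24 months lay below all of 12 months, by a narrow margin for animal 2 of 24 months (-1.40) against animal 1 of 12 months (-1.39). Those of 12 months lay below all of 3 months. Between 24 and 12 months the difference was -0.18 ± 0.29 with an adjusted p of 0.837 in limma. The difference between 24 and 3 months was -0.78 ± 0.29 (SE) with an adjusted p of 0.257, and -0.37 with an adjusted p of 0.143 without the first animal of 3 months, with the same direction and order of animals. Of the markers of leptomeninges and fibroblasts 0 of 7 tested passed (lowest adjusted p 0.0576 in limma between 24 and 3 months). At an unadjusted p under 0.05, 5 of the 7 were lower between 24 and 3 months, beside 4.93% of all items. Between 12 and 3 months 5 were also lower, beside 6.35% of all items either way. The mean levels of the 7 markers relative to the 9-animal mean were 0.09 to 1.03 at 3 months, -0.34 to -0.12 at 12 months and -0.34 to 0.04 at 24 months. All 7 were lower at 24 than at 3 months, and between 24 and 12 months 3 were higher and 4 lower. The part of these cells in Slc6a13 was not tested.

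With the brightest probe of each gene, few members beyond Slc6a13 were separated by age. Between 24 and 3 months the animals of the 2 ages did not overlap for 4 of 29 members (Gabarap higher, and Glra2, Glrb and Slc6a13 lower), which is 13.8%, beside 22.7% of all items (14% higher and 8.68% lower). Between 12 and 3 months they did not overlap for 2 (Slc12a2 higher, Slc6a13 lower), 6.90%, beside 11.3% of all (6.74% higher and 4.61% lower), and between 24 and 12 months for 2 (Glra2 and Slc6a13, both lower), 6.90%, beside 17% of all (6.59% lower).

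The scaffold and trafficking genes did not pass in any comparison. Gphn encodes gephyrin, the scaffold that anchors glycine and GABA-A receptors. It differed by 0.03 ± 0.09 between 24 and 3 months with its first probe. A second probe gave -0.16 ± 0.07, with an unadjusted limma p of 0.0477 and an adjusted p of 0.327. With that second probe all animals of 24 months lay below all of 3 months. Gabarap, which binds gamma subunits and takes part in receptor transport and autophagy, had levels of 4.61, 4.66 and 4.64 at 3 months, 4.64, 4.92 and 4.66 at 12 months, and 4.79, 4.66 and 4.78 at 24 months. The animals of 24 months lay just above those of 3 months, by a margin that was narrow for animal 2, and animal 2 of 12 months was the highest. The difference between 24 and 3 months was 0.11 ± 0.09 with an adjusted p of 0.606. Animal 2 of 12 months was thus the highest for both Abat and Gabarap.

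With the brightest probe of each gene, the chloride cotransporters had the smallest ranges over the 9 animals of the 29 members, which was not so for their second probes. Slc12a5 (KCC2), the neuronal extruder of chloride, differed by 0.09 ± 0.08 between 24 and 3 months with a 95% interval of -0.10 to 0.29, and a second probe gave 0.17 ± 0.14. Slc12a2 (NKCC1), which takes chloride up, had levels of 1.70, 1.596 and 1.66 at 3 months, 1.79, 1.76 and 1.73 at 12 months, and 1.77, 1.72 and 1.63 at 24 months. All 3 animals of 12 months lay above those of 3 months, and those of 24 months overlapped both. The difference between 12 and 3 months was 0.11 ± 0.07 with an adjusted p of 0.936, and that between 24 and 3 months was 0.05 ± 0.07.

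Part of the spread among animals of an age ran with Hoxa5, a homeobox gene of the caudal hindbrain and cord, which was chosen as a covariate after its values were seen. Hoxa5 was 2.73, 3.56 and 1.40 at 3 months, 1.91, 2.31 and 3.31 at 12 months, and 1.63, 1.40 and 2.98 at 24 months. Its level differed by more than 1 log2 unit among the animals of each age, and the ages overlapped. In a limma fit with age and the Hoxa5 level together, 1.23% of all items had a slope with an adjusted p under 0.05, and of the members 1 of 29 did.

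That member was Slc6a5, which fell with Hoxa5. Slc6a5 was 3.24, 2.89 and 3.64 at 3 months, 3.53, 3.29 and 3.25 at 12 months, and 3.70, 3.71 and 3.02 at 24 months, and within each age the animal with the highest Hoxa5 level had the lowest Slc6a5 level. The slope was -0.34 ± 0.05 log2 units per log2 unit of Hoxa5, with an adjusted p of 0.0309. The call did not hold in 6 of the 9 fits that left out 1 animal, where the slope lay between -0.39 and -0.29 throughout and the adjusted p rose to as much as 0.154.

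Members of other roles with the next lowest p had slopes of the same sign that did not pass. They were -0.28 ± 0.06 for Slc32a1 (adjusted p 0.109), -0.37 ± 0.09 for Glra3 (adjusted p 0.122) and -0.20 ± 0.06 for Gad1 (adjusted p 0.224). Of the other plasma membrane transporters, Slc6a11 had a slope of -0.07 ± 0.06, Slc6a9 of 0.09 ± 0.12 and Slc6a13 of 0.01 ± 0.17. At an unadjusted p under 0.05 the members were 7 of 29, beside 12.3% of all items, with Slc6a5, Slc32a1, Glra3, Gad1 and Gabre lower and Gabrq and Gabbr2 higher where Hoxa5 was higher. With Hoxa5 in the fit, 0 members passed in any comparison of ages, beside 2.06% of all items between 24 and 3 months, 0.149% between 12 and 3 months and 0.0236% between 24 and 12 months. In that fit the difference of Slc6a5 between 24 and 3 months became 0.03 ± 0.10, and that of Glra2 became -0.40 ± 0.09 with an adjusted p of 0.0738. Other members moved too. The difference of Slc32a1 went from 0.43 to 0.27 ± 0.12, that of Gad1 from -0.18 to -0.29 ± 0.11 and that of Glra3 from -0.02 to -0.23 ± 0.16.

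**Figure D5:**
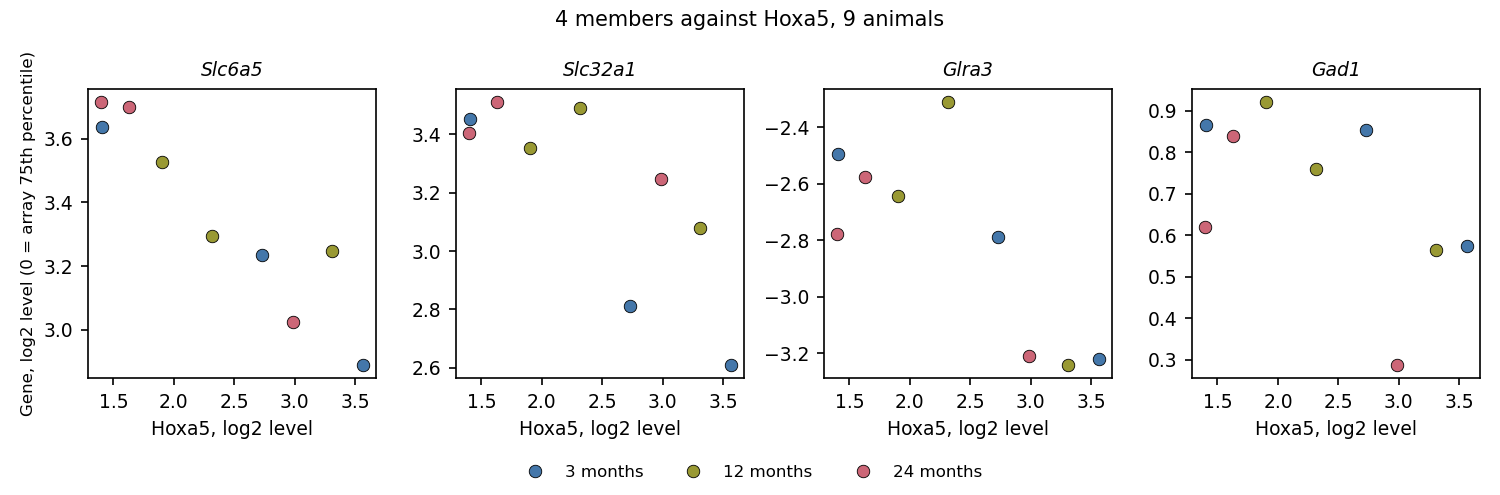
Log2 levels of 4 members (vertical axes, each with its own scale) against the log2 level of Hoxa5 (horizontal axis) in the 9 animals, coloured by age. The genes tend to be lower in the animals with more Hoxa5, and the ages are mixed along the axis; the slope passed the adjusted test for Slc6a5 alone.

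Genes around these 30 were read from a list of 53 other genes of the pathway, of which 45 were tested. Between 24 and 3 months 1 of 45 rose and 0 fell, beside 1.57% higher and 0.472% lower of all items. In the other 2 comparisons 0 passed, beside 0.201% of all items between 12 and 3 months and 0.0118% between 24 and 12 months. The gene that rose was Shmt1, a cytosolic enzyme that interconverts serine and glycine. Its levels were -4.49, -4.47 and -4.57 at 3 months, -4.26, -4.08 and -4.24 at 12 months, and -3.73, -3.58 and -3.77 at 24 months. The ages did not overlap, and the difference between 24 and 3 months was 0.82 ± 0.08 with an adjusted p of 0.00265. The gene is dim, and with normexp background correction the difference was 0.25 with an adjusted p of 0.435 in limma. That setting adds an offset of 50 before log2, which by itself narrows differences of dim probes. It therefore cannot show whether the background accounts for the difference, and the part of the offset was not tested.

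The remaining genes of that list did not pass in any comparison. Of 6 tested auxiliary subunits and effectors of the GABA-B receptor, of 13 synapse organisers and partners of the scaffold, of 9 genes of chloride transport and its kinases and of 3 other transporters, 0 passed. Of 14 genes of GABA and glycine metabolism, only Shmt1 passed. The median difference of the 45 genes between 24 and 3 months was -0.03, beside 0.03 for all items. The rho subunits Gabrr1 and Gabrr3, the pi subunit Gabrp and Glra4 were well above background on 0 of 12 arrays, and Gabrr2 on 4.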

How the data were processed

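Agilent whole rat genome 4x44K arrays were read from the deposited scanner files. Signal intensity was background-corrected by the authors' scanner software, Agilent Feature Extraction 9.5.1.1, per the file headers, on a design annotated on rn3. The series' value table, used as an alternative, holds a score that the authors scaled within each array, with its log base and choice of features unknown. Its column medians lay between -0.044 and -0.015. Spot flags were used as deposited. From the intensity, log2 was taken, outlier spots (57 to 140 an array) were left out, spots of a probe were averaged and the 75th percentile of each array was subtracted. The 2 arrays of an animal were averaged. Probes that stood well above background throughout at least 1 age were kept (29797 of 41012), and the brightest probe stood for a gene, giving 25427 items. Genes were named through accession, name, synonym or gene number in RefSeq tables of assembly GRCr8. Gabra2 was matched by gene number, since the array files call it only a similar locus.

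All 9 animals entered 1 limma fit (limma 3.58.1 in R 4.3.3, moderated tests, 3 contrasts and an F test), with Benjamini-Hochberg adjustment over all items and a threshold of 0.05. The fit was tested on simulated data. The precision is limited by 3 animals an age. Members named in full in each animal were those with an adjusted p under 0.05 in any test, those with an unadjusted p under 0.05 between 24 and 3 months, and otherwise the member with the lowest F test p of each of 8 role groups. Gabra6, Gabrd, Gabbr1, Gabrg3, Glrb, Slc6a5, Hoxa5, Glra4, the rho and pi subunits and second probes were singled out after their values were seen. The members and lists were chosen with earlier results of these data known. Replicate numbers were checked for pairing. Deviations of same-numbered animals from their age means correlated between -0.41 and 0.37, and those of animals with different numbers between -0.39 and 0.34. These values gave no sign of pairing, but with 3 animals an age they cannot exclude it. Alternatives covered normalization, background correction, filters, choice of probe, slide, arrays of an animal, the variance model, the replicate block and each animal left out. The normexp background correction used an offset of 50.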

Additional observations from a re-analysis of the deposited data

How the results depend on the processing

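The count of members that passed between 24 and 3 months was 0, beside 400 higher and 120 lower of all 25427 items. It became 1 (Glra2) with the 12 arrays and the animal as a random block (difference -0.38, adjusted p 0.0340 in limma), where 473 of all items were higher and 151 lower. The count was also 1 (Glra2) with an intensity trend (-0.38, adjusted p 0.0423), where 466 were higher and 142 lower. Over all other alternatives it stayed 0, as it did in every alternative for the other comparisons and the F test. Without 1 animal at a time, the difference of Glra2 between 24 and 3 months lay between -0.45 and -0.33, and its adjusted p was under 0.05 in none of these fits. With the replicate number as a block, 0 members passed in any comparison and the difference of Glra2 was -0.38 with an adjusted p of 0.115, so the replicate block changed no call.

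The median difference of the members moved on slide 3 alone to -0.041 between 24 and 3 months and to -0.16 between 12 and 3 months. Leaving out 1 animal at a time gave medians between -0.0028 and 0.10 for 24 against 3 months, between -0.075 and 0.066 for 12 against 3 months, and between -0.035 and 0.082 for 24 against 12 months. For Abat the difference between 24 and 3 months, 0.02, turned to -0.012 with Hoxa5 as a covariate, -0.027 with the median as centre, -0.0016 with the series' scaled values (in SD of an array) and -0.073 with slide as a block, and lay between -0.015 and 0.039 without 1 animal at a time. Between 24 and 12 months it turned to 0.0012 with normexp. For Gabarap the difference between 24 and 12 months, 0.0052, turned to -0.047 with the median as centre, -0.0079 with quantile normalization and -0.0039 with slide as a block, and lay between -0.043 and 0.094 without 1 animal. Slc12a2 between 24 and 12 months (-0.06) turned to 0.0082 with the mean of its probes and 0.022 with normexp. Slc32a1 between 24 and 12 months (0.08) turned to -0.065 with Hoxa5 as a covariate and lay between -0.035 and 0.17 without 1 animal. Gabra4 between 24 and 3 months lay between -0.17 and 0.43 without 1 animal. Shmt1 between 12 and 3 months turned to -0.019 with normexp, and between 24 and 3 months it was 0.25 there, where 0 of the 45 other pathway genes passed. That count was 2 (Kcnj5, a potassium channel subunit, and Shmt1) with the 12 arrays and with the trend, where more of all items also passed. It was 1 to 2 without 1 animal. The count of members with a slope on Hoxa5 was 0 to 2 without 1 animal, and that slope for Slc6a5 was -0.39 to -0.29. The cause of these shifts was not tested. Over all items, 400 were higher and 120 lower between 24 and 3 months. These counts rose to 473 and 151 with the 12 arrays and to 466 and 142 with the trend. They were 262 and 65 with slide as a block, 276 and 67 with only those ages in the fit and 228 and 82 with normexp. With no filter they were 238 and 51, and without 1 animal as few as 223 and 48 (animal 3 of 3 months).

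For the 21 members not named above by the rule, 135 of 1383 alternative values changed sign and the lowest adjusted p was 0.203. Hoxa5 as a covariate, its fits without 1 animal, the values on slides 1 and 2 and the alternatives for the other pathway genes were chosen after seeing the data. With 3 animals an age, a change under 1.5-fold was not detectable for many members, and the cells behind a level cannot be told apart.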
